A study of Rattus norvegicus with 8 samples.

Results

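The DUSP and Sprouty genes that restrain ERK signalling were followed in the distal colon of rats fed quercetin. The 9 genes were named from what their proteins do, by a list drawn up when earlier results of these data were known, and within a gene the probe set to lead was chosen by its mean signal over all samples. The platform annotation assigned 11 probe sets to 8 of the 9 genes: Dusp1, Dusp4, Dusp5, Dusp6, Dusp10, Spry1, Spry2 and Spry4. No probe set carried Spred1 as its single symbol, so it is not analysed here. The 8 genes stand among 14217 genes with a probe set of a single symbol on the array. Leads of 6 of the 8 were bright enough to be tested, among 10266 such genes, while Dusp4 and Dusp10 were too dim. Because the list was drawn up with results known, the diet differences of its genes are given as a description, beside their p-values adjusted over the whole array.

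The 8 samples were total RNA of mucosa scraped from the distal colon of Rattus norvegicus. The 4 control samples came from rats on a commercial breeder diet, and the 4 quercetin samples from rats on 10 g of quercetin, a plant flavonol, per kg of diet, both for 11 weeks. No label used here gives strain, sex, age or pooling of rats. Nor do the labels say that every sample is its own rat, and the spread behind each p-value may therefore be technical. Scrapings mix cell types, and fewer cells of a type and less RNA per cell cannot be told apart. All 12 colonocyte markers on a list of keratins, adhesion and transport proteins, carbonic anhydrases, villin and Cdx2 were among the probe sets tested, and their summed signal was 120400 to 137300 in control and 115600 to 129300 in quercetin samples. The mean correlation of a sample with the other 7, over 18625 tested probe sets, was 0.927 for control sample 2 and 0.941 to 0.955 for the rest. Control sample 2 also had a 3' to 5' signal ratio of GAPDH of 3.79, against 1.58 to 2.36 elsewhere. That ratio rises when RNA is shortened or incompletely copied. The actin ratio was 8.65 to 21.4 in control and 6.79 to 9.12 in quercetin samples, and the hexokinase ratio was 6.05 in quercetin sample 4 against 1.62 to 3.27 in the other 7.

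ERK is the last kinase of the cascade that carries growth factor signals from receptors through RAS to the nucleus. Active ERK switches on genes whose products turn it off again. DUSP proteins remove the phosphates from the activation loop of MAP kinases, and Sprouty and SPRED proteins act further upstream, between the receptor and RAF. Within the DUSP family, Dusp6 acts on ERK in the cytoplasm, Dusp5 on ERK in the nucleus, Dusp1 and Dusp4 on ERK, JNK and p38 in the nucleus, and Dusp10 mainly on JNK and p38. In the colon, ERK signalling from EGF receptors supports the division of crypt cells, and these inhibitors are read as a sign of its output.

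Dusp6, Dusp1 and Dusp5 are induced rapidly by ERK or by stress, and their upstream sequences are shown because these are the 3 phosphatases of the list that were bright enough to be tested. Each line holds the 250 bases before the start of the gene in RefSeq, on build GRCr8 and read 5' to 3' on the plus strand, with capitals marking matches to 6 motifs searched on both strands. The windows are chr7:35979354-35979603 for Dusp6, chr10:17184603-17184852 for Dusp1 and chr1:262543524-262543773 for Dusp5.
Dusp6: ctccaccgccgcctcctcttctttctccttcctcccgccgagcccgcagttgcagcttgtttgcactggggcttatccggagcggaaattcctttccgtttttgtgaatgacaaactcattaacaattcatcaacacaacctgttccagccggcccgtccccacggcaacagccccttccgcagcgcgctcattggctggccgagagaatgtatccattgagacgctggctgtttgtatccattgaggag
Dusp1: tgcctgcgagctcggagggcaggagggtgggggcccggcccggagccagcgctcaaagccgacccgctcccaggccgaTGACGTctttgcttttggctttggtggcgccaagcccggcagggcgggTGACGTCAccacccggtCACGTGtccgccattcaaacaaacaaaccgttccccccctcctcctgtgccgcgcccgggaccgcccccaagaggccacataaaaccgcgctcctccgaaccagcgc
Dusp5: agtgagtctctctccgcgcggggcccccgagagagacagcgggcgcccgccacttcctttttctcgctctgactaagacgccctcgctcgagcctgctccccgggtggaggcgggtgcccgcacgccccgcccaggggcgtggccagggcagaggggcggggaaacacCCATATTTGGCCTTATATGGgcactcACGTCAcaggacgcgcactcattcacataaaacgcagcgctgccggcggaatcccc
The motifs were the cAMP response element TGACGTCA, its core TGACGT, the AP-1 site TGANTCA, the ETS site CCGGAA, the E-box CACGTG and the CArG box bound by serum response factor. The Dusp1 window held the full cAMP response element, from 124 to 117 bases before the start, which the core also matches on both strands. It held another copy of the core from 172 to 167 bases before the start and an E-box from 107 to 102. Of 33469 windows of this length over 27457 genes, 1.59% held the full element, 6.95% the core and 5.59% the E-box. The Dusp5 window held 2 adjoining CArG boxes, from 82 to 73 and from 72 to 63 bases before the start, and 1 core element from 56 to 51. A CArG box was present in 1.5% of all windows. No whole match to any of the 6 motifs was present in the Dusp6 window. Only whole matches were counted, so near ones, such as the CGGAA in that window, were left out. An ETS site was present in 12.6% and an AP-1 site in 6.34% of all windows, and among the windows of the listed genes 1 ETS site each lay in those of Spry2 and Spry4. RefSeq windows matched 8 of the 9 genes, all but Dusp4. A match is a description of letters and no evidence of binding.

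Dusp6 had the largest difference of the 6 genes bright enough to be tested. Its lead probe set, 1382778_at, had signals of 2839, 1445, 1696 and 1485 in control samples 1 to 4, and of 1151, 579, 1088 and 653 in quercetin samples 1 to 4. Every quercetin sample lay below every control sample, control sample 1 was far above the other controls, and quercetin samples 2 and 4 were the lowest of all. Sample 4 is the one with the high hexokinase ratio, whose part in the Dusp6 values was not tested. The means were 1866 ± 658 (SD, n = 4) and 867.7 ± 293 (SD, n = 4). On the scale of log2(signal + 16), on which all log2 fold changes here are given, the difference was -1.10 (SE 0.253, 95% interval -1.64 to -0.55), a level 0.468 times that of the controls. It did not pass limma's test after Benjamini-Hochberg adjustment over 18625 probe sets (adjusted p = 0.26, unadjusted p = 0.000822), and ranked 58 by p. Without control sample 1 the value was -0.88 (adjusted p = 0.247).

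The other 2 Dusp6 probe sets had smaller differences. Probe set 1387024_at had 2522, 994, 1503 and 1459 in the controls and 1001, 857, 986 and 979 in the quercetin samples. Here the quercetin samples were tightly grouped, at 955.8 ± 66.8 (SD, n = 4), and control sample 2 fell among them while the other 3 controls stood above. Its log2 fold change was -0.67 (SE 0.219, adjusted p = 0.333), -0.88 without control sample 2, the one with the high 3' to 5' ratio, and -0.44 without control sample 1. With the GAPDH 3' to 5' ratio as a covariate the log2 fold change of 1387024_at was -0.77 (SE 0.126, limma adjusted p = 0.105). The part of the ratio in the overlap itself was not tested. Probe set 1377064_at had 994, 656, 870 and 716 in the controls and 704, 384, 691 and 439 in the quercetin samples. Quercetin samples 1 and 3 lay inside the range of the controls, and samples 2 and 4 below it. Samples 2 and 4 were also the lowest on the lead, where every quercetin sample lay below every control. On 1377064_at the log2 fold change was -0.56 (SE 0.209, adjusted p = 0.366). With the mean of the 3 probe sets in place of the brightest, the log2 fold change of Dusp6 was -0.78 (adjusted p = 0.265).

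**Figure D1:**
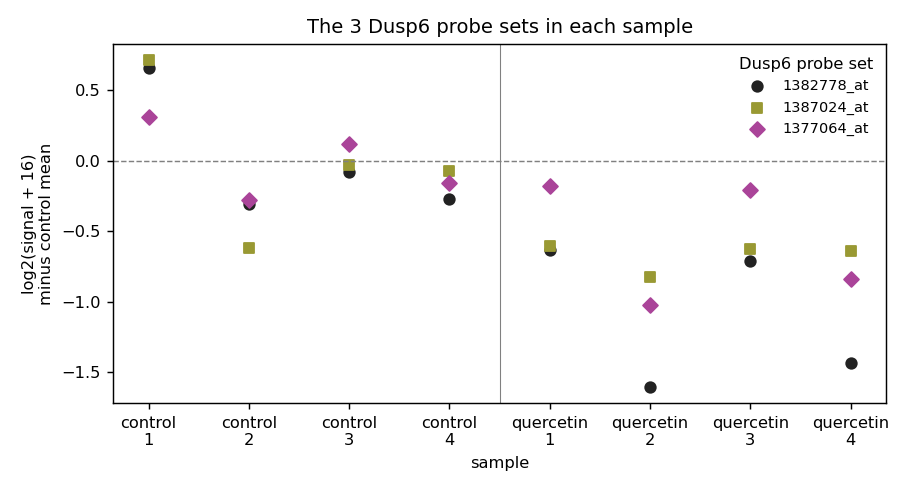
Each point is a sample's log2(signal + 16) of a Dusp6 probe set minus that probe set's mean over the 4 control samples, with samples along the horizontal axis. Quercetin samples 2 and 4 are at -1.60 and -1.44 on 1382778_at and at -1.03 and -0.84 on 1377064_at, while 1387024_at keeps all 4 quercetin samples between -0.83 and -0.61 and has control sample 2 at -0.62.

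Dusp1, a nuclear phosphatase induced by stress and by glucocorticoids, had lead signals of 1197, 964, 770 and 1090 in the controls and 637, 1056, 542 and 737 in the quercetin samples. Quercetin samples 1, 3 and 4 lay below every control sample, and quercetin sample 2 lay among the controls. The log2 fold change was -0.45 (SE 0.200, 95% interval -0.89 to -0.019), which did not pass (adjusted p = 0.443, unadjusted p = 0.042). Without quercetin sample 2 it was -0.63 (adjusted p = 0.492) and without quercetin sample 3 it was -0.32 (adjusted p = 0.596). The dim second probe set of Dusp1, 1368147_at, had signals of 38.7 to 55.7 in control and 36.4 to 58.0 in quercetin samples. Its groups overlapped throughout, with a log2 fold change of -0.097 (SE 0.244, adjusted p = 0.925).

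Dusp5 encodes the nuclear phosphatase specific for ERK. Its signals were 439, 105, 127 and 257 in the controls and 147, 196, 182 and 241 in the quercetin samples. The controls were widely spread and the quercetin samples lay inside their range. The log2 fold change was -0.074 (SE 0.345, 95% interval -0.82 to 0.67, adjusted p = 0.962), the widest interval among the tested leads, and without control sample 1 the value was 0.29. Whether the differences of Dusp5 and Dusp6 differ from each other was not tested.

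Dusp4, a nuclear phosphatase that ERK induces, and Dusp10 were dim and were left out of the tests. Dusp4 had 18.3, 49.7, 30.4 and 39.7 in the controls and 15.4, 7.48, 27.2 and 19.1 in the quercetin samples. The groups overlapped only through control sample 1, and the difference in mean log2 value was -0.60. Dusp10 had 29.6, 17.6, 13.9 and 6.27 in the controls and 8.996, 21.4, 4.15 and 0.9986 in the quercetin samples, with a difference of -0.42. Values this low scatter widely in MAS5, and with a pseudocount of 1 in place of 16 the differences of Dusp4 and Dusp10 were -0.997 and -1.19, the latter larger than that of Dusp6 (-1.11), and with 64 they were -0.27 and -0.15. That of Dusp10 was -0.24 without control sample 1, -0.26 without quercetin sample 4 and -0.64 without quercetin sample 2.

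**Figure D2:**
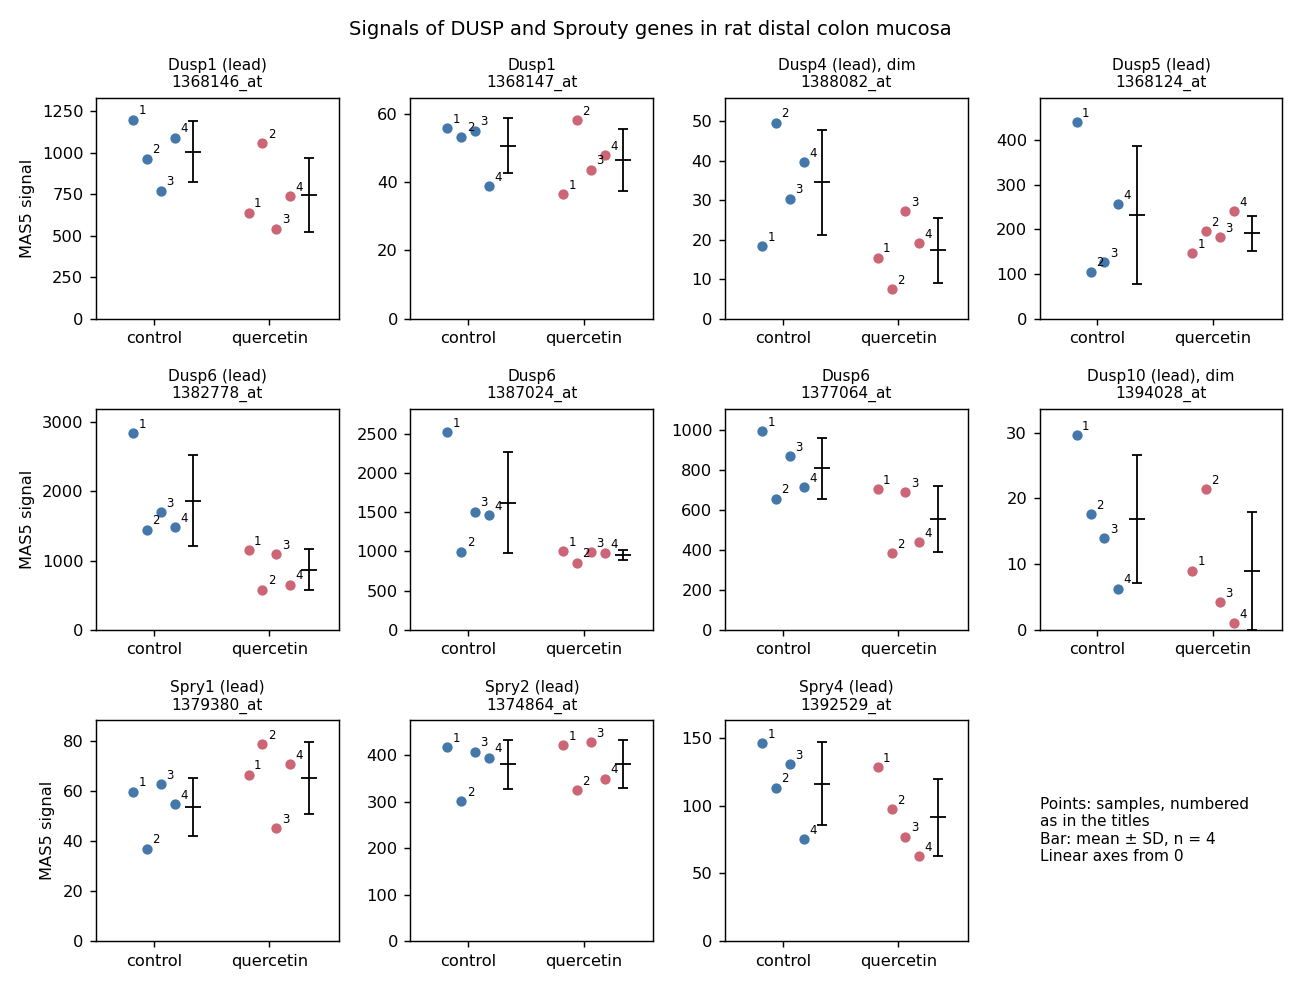
Each panel plots the MAS5 signal of a probe set on a linear axis from 0, with points for the numbered samples and a bar for the mean ± SD of 4. The 4 quercetin samples lie below the 4 controls on 1382778_at of Dusp6, and on each of the other 10 probe sets the groups overlap.

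The Sprouty genes encode inhibitors that ERK induces and that act between receptors and RAF. Spry2 had signals of 417, 301, 408 and 395 in the controls and 421, 325, 429 and 350 in the quercetin samples. The groups covered almost the same range, with means of 380.4 ± 53.6 (SD, n = 4) and 381.2 ± 51.9 (SD, n = 4). Its log2 fold change was 0.0043 (SE 0.159, adjusted p = 0.996), with a 95% interval of -0.34 to 0.35. The sign turned in 7 of 20 alternatives, among them quantile normalisation, and control sample 2 was the low one among the controls.

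Spry4 had 146, 113, 131 and 75.0 in the controls and 128, 97.2, 76.9 and 62.7 in the quercetin samples. The ranges overlapped over most of their width, and the log2 fold change was -0.31 (SE 0.248, adjusted p = 0.704). It was -0.20 without control sample 1, -0.17 without quercetin sample 4, -0.48 without control sample 4 and -0.46 without quercetin sample 1. Spry1 had 59.8, 37.0, 62.9 and 54.8 in the controls and 66.6, 78.9, 45.2 and 70.8 in the quercetin samples. Quercetin samples 1, 2 and 4 were above every control and sample 3 was among them, for a log2 fold change of 0.22 (SE 0.245, adjusted p = 0.789). It was 0.097 without control sample 2, 0.14 without quercetin sample 2 and 0.35 without quercetin sample 3. The 95% intervals of Spry4 and Spry1 ran from -0.84 to 0.23 and from -0.31 to 0.75.

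Of the 9 tested probe sets of these genes, 0 passed limma's adjusted threshold of 0.05, where 0.0107% of all tested probe sets did (2 of 18625). At an unadjusted p under 0.05, 4 of the 9 were lower, 3 of them Dusp6 and 1 Dusp1, against 5.71% of all tested probe sets, and 0 were higher, against 5.04%. The count of 4 was 2 without control sample 1, without quercetin sample 4 or with median centring, and 1 when the probe sets of each gene were averaged, which leaves 1 value per gene. The 3 Dusp6 probe sets are assigned to the same gene and were read in the same samples, so they are not independent. Whether they read the same transcripts was not tested. On 1 of the 9 every quercetin sample lay below every control sample, against 3.30% of all tested. Of the 6 tested leads 4 were lower and 2 higher, with a median log2 fold change of -0.19, beside 48.7% lower and a median of 0.0085 over all tested probe sets. With the dim Dusp4 and Dusp10, which have no such background, 6 were lower and 2 higher and the median was -0.36. The median of the 8 was -0.22 without control sample 1 and -0.22 without quercetin sample 4.

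**Figure D3:**
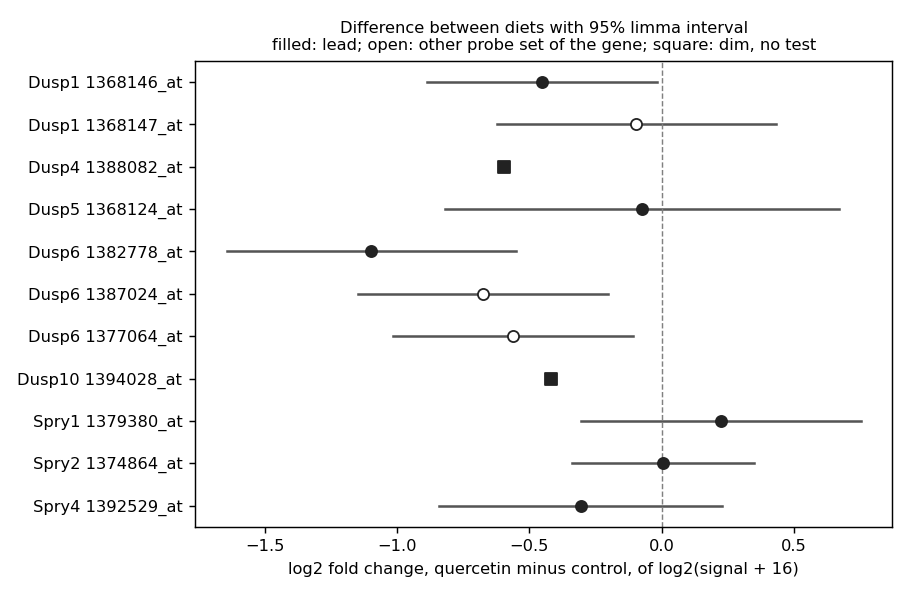
Points give the log2 fold change of each probe set, quercetin minus control, and lines its 95% interval from limma, with filled points for leads, open points for further probe sets and squares for the dim Dusp4 and Dusp10, which have no interval. The intervals of the 3 Dusp6 probe sets and of the Dusp1 lead lie below 0, and those of the other 5 tested probe sets cross it.

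Other genes of the pathway were taken from lists of the ERK pathway and its neighbours, and 0 of the genes on any of them passed limma's adjusted threshold. The lists were drawn up with earlier results of these data known, and their counts are given as a description. Over all tested probe sets, 5.71% were lower and 5.04% higher at an unadjusted limma p under 0.05. Among ligands of the EGF family, 3 of 6 tested genes were lower and 3 higher, and 2 had an unadjusted p under 0.05, both lower. Areg, which encodes amphiregulin, had signals of 1483, 597, 408 and 832 in the controls and 274, 230, 318 and 401 in the quercetin samples. Every quercetin sample was below every control sample, though quercetin sample 4 and control sample 3 nearly met, and control sample 1 was again the highest. The log2 fold change of Areg was -1.26 (SE 0.310, adjusted p = 0.26), and -0.93 without control sample 1. Ereg, which encodes epiregulin, had -0.62 (SE 0.272, adjusted p = 0.436), and Egf 0.30 (SE 0.334, adjusted p = 0.789) or -0.056 without control sample 1.

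Among 11 tested genes for other feedback inhibitors, 4 were lower and 7 higher, with a median of 0.063, and 2 had an unadjusted p under 0.05, both lower. Errfi1, whose product binds and blocks the kinase domain of EGF receptors, had signals of 1856, 1003, 1037 and 1240 in the controls and 795, 691, 906 and 885 in the quercetin samples. All 4 quercetin samples lay below all 4 controls, with control sample 1 the highest. The log2 fold change of Errfi1 was -0.60 (SE 0.187, adjusted p = 0.306), and -0.41 without control sample 1. Cblb, a ubiquitin ligase that marks receptors for breakdown, had -0.49 (SE 0.200, adjusted p = 0.404), with groups that did not overlap but nearly met, at 336.7 in control sample 1 and 336.5 in quercetin sample 4. Socs3, an inhibitor of cytokine receptors, had 0.73 (SE 0.360, adjusted p = 0.495). Of 7 tested other dual-specificity phosphatases, 4 were lower and 3 higher and 0 had an unadjusted p under 0.05. Among them, Dusp7 had -0.34 (SE 0.185, adjusted p = 0.546), Dusp22 -0.24 and Dusp11 0.12.

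Of 9 receptor tyrosine kinases 2 were lower and 7 higher, and 2 were higher at an unadjusted p under 0.05. They were led by Insr, the insulin receptor, at 0.61 (SE 0.219, adjusted p = 0.352) and 0.36 on a further probe set, Erbb2 at 0.42 (SE 0.183, adjusted p = 0.433) and Fgfr3 at -0.31, with 0.24 on a further Fgfr3 probe set. Of 14 adaptor, RAS and ERK cascade genes 9 were lower and 5 higher, within -0.35 to 0.24, and 1 was lower at an unadjusted p under 0.05. Ptpn11, a phosphatase needed for RAS activation, had the lowest value, with -0.77 on a further, dim probe set, and the adaptor Grb2 the highest, although 2 further Grb2 probe sets had 0.22 and -0.83. The ERK-activated kinase Rps6ka3 had -0.26, with -0.30 and 0.185 on 2 further probe sets. Of 9 genes for p38 and JNK kinases 5 were lower and 4 higher, and 1 was lower at an unadjusted p under 0.05. The values were -0.37 (SE 0.146, adjusted p = 0.388) for Map2k3, 0.32 for Mapk9, with 0.097 on a further probe set, and 0.14 for Map3k7. On the leads of Insr, Grb2 and Map3k7 every quercetin sample lay above every control sample. The groups of Insr nearly met, at 196.7 in control sample 1 and 196.9 in quercetin sample 2. The share of all tested probe sets with groups apart in this direction was not counted.

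Among genes that ERK and related signals induce within minutes, 12 of 22 were lower and 10 higher, with a median of -0.044. At an unadjusted p under 0.05 there were 4 lower and 1 higher. Fosb and Fos, subunits of AP-1, had -1.38 (SE 0.247, adjusted p = 0.193) and -0.76 (SE 0.218, adjusted p = 0.285), each with no overlap between the groups, while a dim Fos probe set had 0.49 and the mean of both Fos probe sets -0.13 (adjusted p = 0.816). Myc, a driver of cell growth, had 0.86 (SE 0.354, adjusted p = 0.411), and 0.49 without control sample 1. A list of later targets of ERK, which also holds the ERK-regulated factors Elk1, Elk3 and Elk4, had 7 of 13 lower and 6 higher. There was 1 each at an unadjusted p under 0.05. Ccnd1, the cyclin of early G1, had 0.41 (SE 0.136, adjusted p = 0.339), though 2 other probe sets had 0.39 and -0.020. On the Ccnd1 lead every quercetin sample lay above every control sample. Vegfa had -0.43 (SE 0.173, adjusted p = 0.402), against 0.0004 on a further probe set, and the ETS factor Ets2 -0.29. Glucocorticoid-induced genes, to which Dusp1 also belongs by regulation, were followed by a list. It also holds the glucocorticoid receptor gene Nr3c1 and Hsd11b2, whose product inactivates glucocorticoids, and both are counted. On this list 8 of 11 were lower and 3 higher with a median of -0.16, and 2 were lower at an unadjusted p under 0.05. These were the kinase gene Sgk1 at -0.89 (SE 0.274, adjusted p = 0.301), or -0.54 without quercetin sample 2, and Errfi1, which is also counted among the feedback inhibitors. The clock gene Per1 had -0.89 (SE 0.4996, adjusted p = 0.56), with groups that overlapped and values of -0.55 without control sample 4 and -1.36 without control sample 2. The comparisons of all these genes share the same 8 samples.

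**Figure D4:**
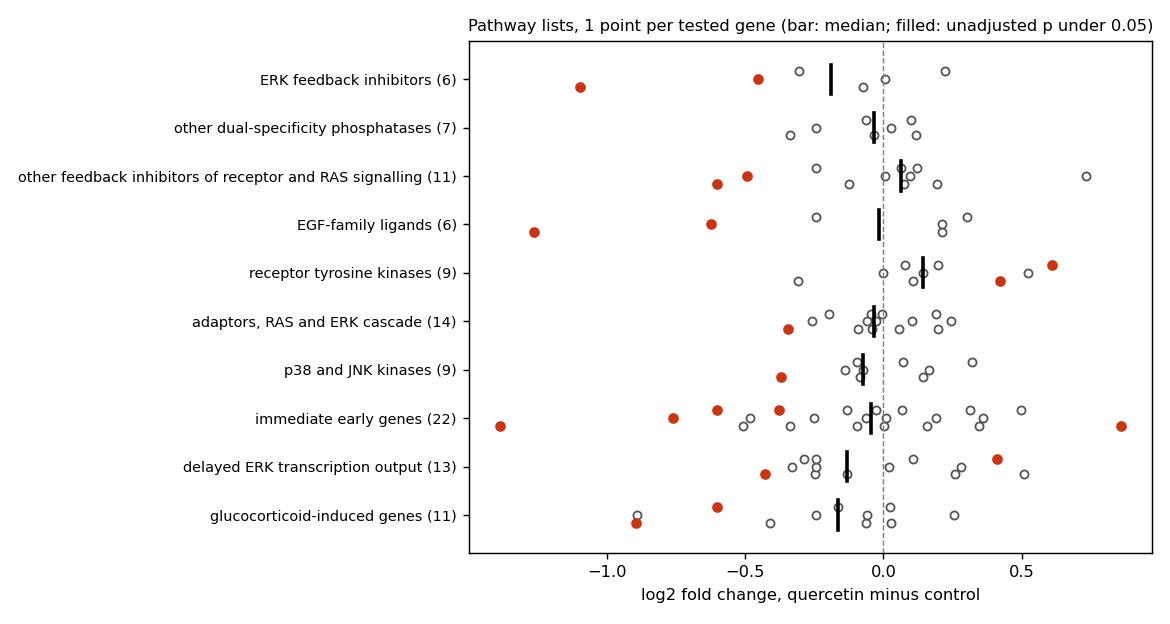
Each point is the log2 fold change of a tested gene, quercetin minus control, by list (number of genes in brackets), with a bar at the list's median and filled points for an unadjusted p under 0.05. Medians lie between -0.19 and 0.14, and the lowest points belong to Fosb, Areg and Dusp6.

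Across samples, and after the mean of each diet group had been subtracted, the Dusp6 lead had a Pearson r of 0.945 with Dusp6 probe set 1377064_at and 0.713 with 1387024_at, over 8 samples. With Spry2 r was 0.777, with Spry4 0.540, with Spry1 -0.146, with Dusp5 0.332 and with the Dusp1 lead -0.349. The dim Dusp4 and Dusp10 had -0.163 and 0.183. Set among the r values of 10260 tested genes outside the list, Spry2 stood at percentile 97.7 and Spry4 at 88.1. Dusp6 probe set 1387024_at stood at 96.0, Dusp5 at 76 and the Dusp1 lead at 27.9. The genes whose pattern was most like that of Dusp6, of 10260 candidates, were Polr1d (r 0.963, Spearman rho 0.952), Vps36 (0.961, 0.881), Slc29a2 (0.960, 0.952), Emc6 (0.957, 0.929) and Snapc3 (0.950, 0.976). These are the highest of very many values from few samples and are given as a description. The points share their arrays and scaling, and with quantile normalisation 1 of the 5 was still among the highest 5.

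All 7 goblet cell markers were tested, 3 lower and 4 higher, with summed signals of 65570 to 75590 in control and 62860 to 76550 in quercetin samples. Markers of other cell types that a scraping can hold had 0 genes past limma's adjusted threshold and 1, the macrophage gene Lyz2, at an unadjusted p under 0.05 (0.57, adjusted p = 0.363). Smooth muscle markers had 4 of 9 genes bright enough to be tested, 2 lower and 2 higher. The signal summed over all 9, dim genes included, was 1513 to 3206 in control and 1502 to 1900 in quercetin samples. Most of that sum was Mylk, a myosin kinase gene, at 2693 in control sample 1 and 1086 to 1643 in the samples other than that, with a log2 fold change of -0.42 (SE 0.205). The T cell list had 2 of 8 tested, both higher. Its sums over all 8, dim genes included, were 347 to 694 in control and 458 to 725 in quercetin samples. Fibroblast markers had 3 of 7 tested, endothelial markers 2 of 6, macrophage markers 3 of 7, B cell markers 1 of 6 and enteric neuron and glia markers 1 of 7. The T cell genes Cd3d and Cd3e, the macrophage gene Cd68 and the smooth muscle genes Tagln and Actg2 were too dim to be tested. The ranges of control and quercetin samples overlapped in the summed signal of each of these 7 lists. Their part in the values of Dusp6 and Areg was not tested.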

How the data were processed

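Total RNA from 4 control and 4 quercetin samples had been hybridised to Affymetrix rat arrays. The authors deposited linear signal intensity for each probe set and sample, and the submitters' processing notes name MAS5. In the deposited table the mean intensity with 2% trimmed at either end was 200.1 in each sample. Any further steps, and the build, are not given in these sources. MAS5 summarises the probes behind a probe set and brings arrays to a common mean, so a shift of most transcripts at once would not be seen. The number of arrays limits the precision.

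Groups and sample numbers came from the sample titles. Array controls, 57 of 31099 probe sets, were not used. Values were transformed to log2(signal + 16), where fold changes of dim probe sets come out too small, and kept as scaled because sample medians of log2 signal differed by 0.407, under the limit of 0.5. The upper 60% of probe sets by mean, those at or above 5.50 on that scale, were tested with limma 3.58.1 in R 4.3.3 (lmFit, eBayes with trend, two-sided), with Benjamini-Hochberg adjustment over all 18625, also where a single gene is given. The steps were also run on simulated data with independent noise for each probe set and no differences in array quality. The outcome is not given here and does not bear on these arrays' uneven quality.

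The platform annotation gave 20826 probe sets a single symbol, 436 more than one, and 9780 no symbol. Only those with a single symbol were named. The brightest probe set of a gene leads. The genes, the lists and the tests were chosen with earlier results of these data known, and the motifs after the sequences were seen. Every listed gene is named, and of each pathway list up to 3 genes with the smallest p, beside the 5 genes most like Dusp6. Alternatives were averaging the probe sets of each gene, pseudocounts of 1 and 64, array weights, median centring, quantile normalisation, the GAPDH 3' to 5' ratio as a covariate, testing all probe sets or the upper 40%, eBayes without a trend, a block for the sample number, both control samples 1 and 2 left out, and each sample left out in turn.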

Additional observations from a re-analysis of the deposited data

Results flagged for a closer look

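Of 22 groups of 4 samples, the 11 probe sets in either diet, 3 held a sample that stood apart, and by chance about 1 in 20 would. The value given is how far that sample lay from its neighbour, as a share of the whole range of the group on the log2 scale. Control sample 4 was low for the dim Dusp1 probe set 1368147_at (0.868). Quercetin sample 2 was low for Dusp6 on probe set 1387024_at (0.857). Control sample 2 was low for Spry2 (0.834), and without that sample the log2 fold change of Spry2 was -0.099.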

How the results depend on the processing

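Over 20 alternatives 0 probe sets of the 8 genes passed the adjusted threshold, and 5 to 7 of the 8 leads were lower. The log2 fold change of Dusp6 stayed between -1.25 and -0.78, with adjusted p-values of 0.108 to 0.594, and that of Dusp1 between -0.63 and -0.27 (0.316 to 0.788). The count over the whole array, 2, was 1 with a pseudocount of 1, quantile normalisation, median centring, no filter or no trend, 3 with a pseudocount of 64, and 0 with gene means or without control samples 1 and 2. Leaving out single samples gave 1 to 2. The median of the 8 genes, -0.36, was -0.18 with a pseudocount of 64 and -0.13 without control samples 1 and 2, and between -0.44 and -0.22 with single samples left out. Of 737 values of 37 genes or probe sets, 14 changed sign and 85 others, from 27 genes or probe sets, moved by more than 1.5 times, while 0 changed side of the adjusted threshold. The untested Dusp4 and Dusp10 moved by more than the replicate SD with a pseudocount of 1, to -0.997 and -1.19. Dusp5 was 0.051 without control samples 1 and 2, 0.29 without control sample 1, 0.039 without control sample 4 and 0.036 without quercetin sample 1, and single samples left out gave -0.35 to 0.29. Spry2 was -0.0007 with quantile normalisation, -0.060 with array weights, -0.031 with the GAPDH covariate and -0.081 without control samples 1 and 2, and single samples left out gave -0.099 to 0.075. Egf was 0.00 without control samples 1 and 2 and -0.056 without control sample 1, with single samples left out giving -0.056 to 0.53, and Grb2 -0.12 with gene means. The cause was not tested for any of these.

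Whether the sample numbers pair the samples is not known from the titles. Over all tested probe sets, the deviations of same-numbered samples had correlations of -0.023, 0.163, -0.151 and 0.138, which cannot settle it. With the number as a replicate block, 1 probe set passed over the whole array and 0 of these genes, and Dusp6 had an adjusted p of 0.108. The SE of the Dusp6 lead was 0.150 with the block and 0.253 without it, and that of 1377064_at 0.140 and 0.209. For Spry1 the SE was larger with the block, at 0.271 against 0.245.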
